A study of Mus musculus with 12 samples.

Results

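The fluid pump of the corneal endothelium was examined through 6 genes, 3 of which encode β subunits of the sodium pump (*Atp1b1*, *Atp1b2* and *Atp1b3*), 2 cation-chloride cotransporters (*Slc12a2* and *Slc12a4*) and 1 a water channel (*Aqp1*). They were chosen by symbol for their place in ion and water transport, and all 6 were found among the 15838 genes measured. Corneal endothelial cells (CEC) had been dissected with the Descemet membrane, their basement membrane, from C57BL/6 mice at 10 weeks of age. The 12 RNAseq libraries fell into 4 groups of 3, namely *Slc4a11*-/- (KO) males, *Slc4a11*-/- females, *Slc4a11*+/+ (WT) males and *Slc4a11*+/+ females. KO mice carry a targeted deletion within *Slc4a11* in every cell of the body and were littermates of the WT mice, from crosses of heterozygous parents. The sample records describe pooled membranes and the study's methods describe membranes processed as pairs, and with pooling the SE given here would not measure how mice vary. The comparisons asked whether loss of *Slc4a11* went with another level of the pump genes in each sex, and whether that difference was itself unequal between the sexes.

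The corneal endothelium keeps the stroma clear by moving ions and water from the cornea into the aqueous humour. The sodium pump, a catalytic α subunit that needs a β subunit to fold and reach the basolateral membrane, sets the sodium gradient on which other transporters run. NKCC1, encoded by *Slc12a2*, uses that gradient to bring sodium, potassium and chloride into the cell, KCC1, encoded by *Slc12a4*, lets potassium and chloride out, and aquaporin 1 is a membrane pore for water. SLC4A11, the protein missing in KO mice, is itself a membrane transporter of the same cells.

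The files held fitted values and no value per library, so that the depth of each library is unknown, no single library can be shown, and each log2FC below stands with the standard error (SE, n = 3 libraries per group) of the fit. A group level in CPM, the read count of a gene scaled to the size of its library, is an estimate rebuilt from the coefficients and has no error. Among checks on the labels, *Slc4a11* fell in KO males (log2FC -1.83, SE 0.22, limma adjusted p = 0.000522) and in KO females (log2FC -2.89, SE 0.22, limma adjusted p = 2.77e-05), with estimated levels of 3076 CPM in WT males, 865 in KO males, 4681 in WT females and 633 in KO females. The 4 Y-linked genes examined had a female minus male log2FC between -8.52 and -7.86 (limma adjusted p = 0.00710 for each). KO minus WT for the same 4 genes in females lay between 2.17 and 3.99, with SE from 2.08 to 3.01, and none passed the test. *Xist*, a marker of female cells, had a female minus male log2FC of 6.35 but was not called (limma adjusted p = 0.882). Its SE for KO minus WT was 5.35 in males and 1.52 in females. Of 12 markers of corneal endothelium, 11 had a value, the one without being *Foxc2*, and their summed level ran from 16345 to 19726 CPM across the groups. That sum includes *Slc4a11* itself and *Ptgds*, which is also on the stromal list, and without both the other 9 summed to 14993 CPM in WT males, 16233 in KO males, 15011 in WT females and 15699 in KO females. Markers of other tissue were present too. The 8 stromal markers summed to 16732 CPM in WT males, 11840 in KO males, 16910 in WT females and 9240 in KO females. In such bulk RNA, fewer cells of a type and less RNA per cell cannot be told apart.

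By position in the mouse genome GRCm38, with the gene models of GENCODE M21, the *Atp1b1* gene (ENSMUSG00000026576) lies on the minus strand at chr1:164437109-164458355 and its longest transcript has 6 exons. The gene for the β2 subunit, *Atp1b2* (ENSMUSG00000041329), lies on the minus strand at chr11:69599736-69605942, and that for β3, *Atp1b3* (ENSMUSG00000032412), on the minus strand at chr9:96332655-96364442. The KCC1 gene *Slc12a4* (ENSMUSG00000017765) lies on the minus strand at chr8:105943590-105966097, with 24 exons. *Aqp1* (ENSMUSG00000004655) lies on the plus strand at chr6:55336432-55348555 and has a single annotated transcript of 4 exons. *Atp1b1* overlaps *Nme7* on the opposite strand by 617 bases, and *Slc12a4* overlaps the antisense gene *Gm16156* by 2254 bases. The library kit keeps the strand, but how reads were counted is not given in the sources used here, so reads of these overlapping stretches are uncertain.

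The 250 bases upstream of the start site are shown for 3 genes, each read along its own strand, because their values in the 2 sexes took 3 different forms: KO minus WT of *Atp1b1* differed in sign between the sexes, that of *Atp1b3* was positive in males and near 0 in females, and that of *Aqp1* was positive in both, although none passed the test. The sequences are RefSeq's for GRCm38.p6, and capitals mark a GC box (GGGCGG, read on either strand) or a CCAAT box (CCAAT, either strand).
*Atp1b1*, chr1:164458356-164458605, minus strand: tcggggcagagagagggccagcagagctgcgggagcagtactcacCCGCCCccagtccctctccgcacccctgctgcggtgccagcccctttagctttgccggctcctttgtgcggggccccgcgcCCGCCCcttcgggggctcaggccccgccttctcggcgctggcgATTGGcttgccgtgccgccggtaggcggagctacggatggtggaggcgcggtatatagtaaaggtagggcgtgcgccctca
*Atp1b3*, chr9:96364432-96364681, minus strand: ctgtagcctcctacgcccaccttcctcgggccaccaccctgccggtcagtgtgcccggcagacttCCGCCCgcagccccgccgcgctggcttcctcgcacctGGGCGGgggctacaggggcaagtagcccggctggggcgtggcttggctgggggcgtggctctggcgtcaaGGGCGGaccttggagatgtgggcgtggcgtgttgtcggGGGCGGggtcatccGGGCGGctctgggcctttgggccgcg
*Aqp1*, chr6:55336049-55336298, plus strand: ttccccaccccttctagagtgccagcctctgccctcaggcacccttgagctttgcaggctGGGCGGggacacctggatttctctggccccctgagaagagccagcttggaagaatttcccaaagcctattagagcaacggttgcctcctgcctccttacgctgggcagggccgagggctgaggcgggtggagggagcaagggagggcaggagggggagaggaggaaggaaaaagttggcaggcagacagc
The window of *Atp1b1* held 2 GC boxes and 1 CCAAT box, that of *Atp1b3* 5 GC boxes, and that of *Aqp1* 1 GC box. Of all 32851 RefSeq promoter windows of this length, 32.7% held a GC box and 33.8% a CCAAT box. None of the 3 windows held TATAAA (12.4% of all windows), AGAACA, a half-site of the glucocorticoid, androgen and progesterone receptors (16.1%), or AGGTCA, a half-site of the oestrogen receptors (14.02%), on either strand. RefSeq lists a second start for *Atp1b3*, whose upstream window at chr9:96363716-96363965 held none of the 5 motifs. The RefSeq start of *Aqp1* lies upstream of the GENCODE one, and *Slc12a4* had 3 GC boxes in its window. Absence of a match says only that these letters do not occur in that stretch.

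Levels of the pump genes spanned a wide range. *Aqp1* ranked 12 and *Atp1b1* 30 of the 15838 genes by mean level, at 5279 and 2594 CPM. *Atp1b3* ranked 747 at 187 CPM, *Slc12a4* ranked 1605 at 105 CPM, *Slc12a2* ranked 1629 at 104 CPM, and *Atp1b2* ranked 4532 at 37.1 CPM. To compare genes of unequal length, each mean was divided by the length of all annotated exons. On that scale of CPM per kb the order was *Aqp1* (2009), *Atp1b1* (842), *Atp1b3* (78.3), *Slc12a4* (24.6), *Slc12a2* (9.55) and *Atp1b2* (9.09). These levels carry no error, so that neighbours in the order could not be tested. The last pair was nearly level with the union of exons as length, and lay 4.0 against 3.3 log2 CPM per kb with the longest transcript as length.

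**Figure D1:**
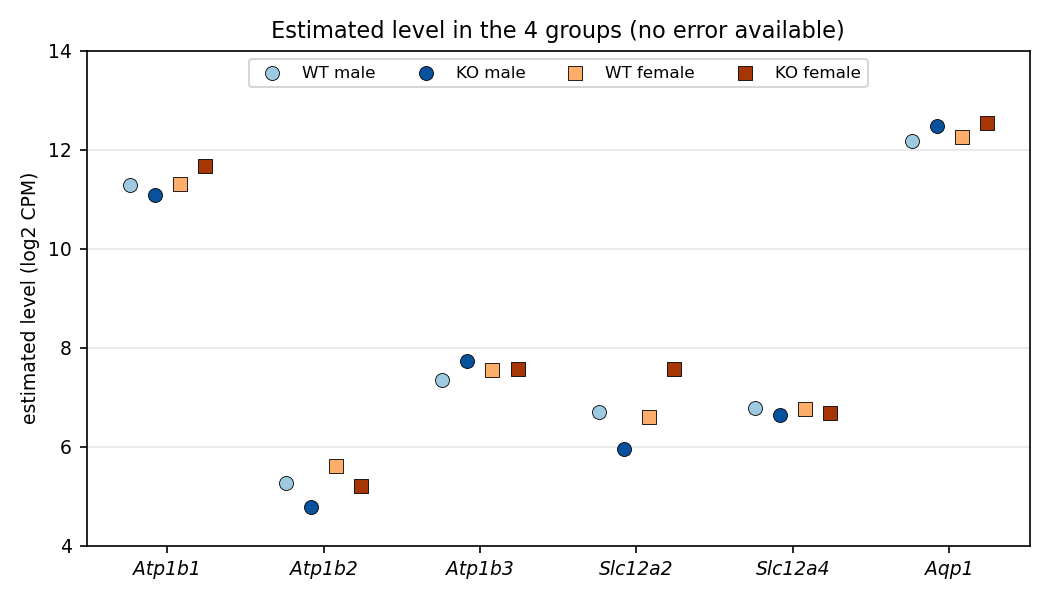
Estimated level in log2 CPM (vertical axis) of the 6 genes in the 4 groups, with circles for males, squares for females, pale symbols for WT and dark symbols for KO; no error is available for these estimates. *Slc12a2* is lowest in KO males (61.6 CPM) and highest in KO females (190 CPM), whereas *Slc12a4* stays between 100.2 and 109.7 CPM.

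The β1 subunit gene made up most β-subunit RNA in every group. Of the summed CPM per kb of the 3 β genes, *Atp1b1* took 91.3% in WT males, 88.0% in KO males, 90.2% in WT females and 92.3% in KO females. The share of *Atp1b3* was 7.62% in WT males, 11.2% in KO males, 8.49% in WT females and 6.90% in KO females. *Atp1b2* took between 0.790% and 1.30%. The KO males thus had the lowest share of β1 and the highest of β3 among the 4 groups, and the KO females the reverse. These shares come from group estimates and were not tested.

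**Figure D2:**
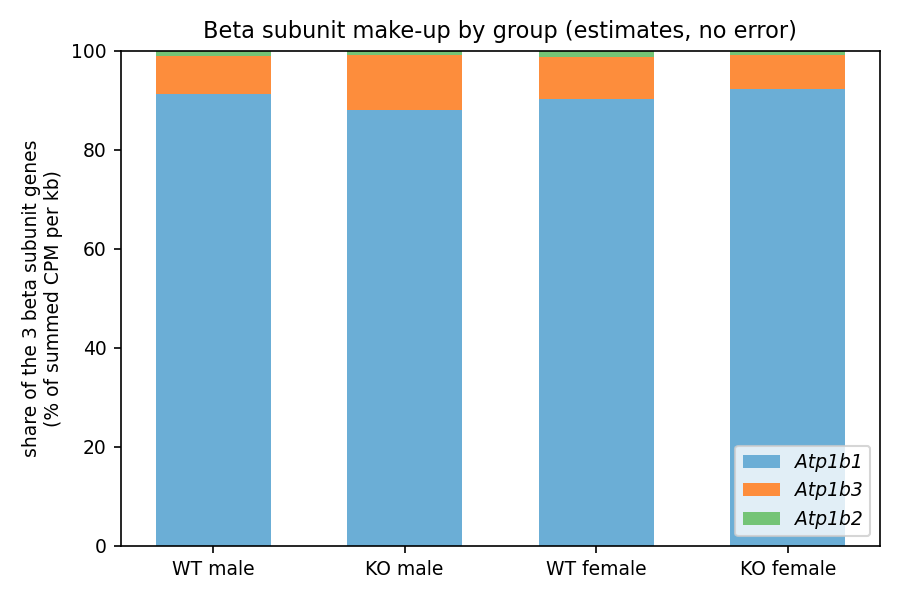
Share of each β subunit gene in the summed CPM per kb of the 3 genes (vertical axis, percent), as stacked bars for the 4 groups, without error. *Atp1b3* takes 11.2% of the bar in KO males and 6.90% in KO females.

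No pump gene passed an adjusted p of 0.05 in either sex (limma moderated t, two-sided, with Benjamini-Hochberg adjustment over the 15838 genes). In males 0 of 6 were called, beside 5.47% of all genes, and in females 0 of 6, beside 1.42% of all genes. At an unadjusted p under 0.05, 3 of 6 were counted in males (*Atp1b2* lower, *Atp1b3* and *Aqp1* higher), where 21.9% of all genes were, and 3 of 6 in females (*Atp1b1*, *Slc12a2* and *Aqp1*, all higher), where 15.9% of all genes were. The median size of the log2FC was 0.34 over the 6 genes in males, against 0.24 over all genes, and 0.32 in females, against 0.21.

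The largest values were those of *Slc12a2*, the NKCC1 gene, and they had opposite signs in the sexes. The gene (ENSMUSG00000024597) lies on the plus strand at chr18:57878678-57946821, with 27 exons in its longest transcript. Its estimated level was 105 CPM in WT males and 61.6 in KO males, and 96.4 CPM in WT females and 190 in KO females. KO minus WT was -0.76 in males (SE 0.46, 95% CI -1.75 to 0.22, adjusted p = 0.346) and 0.98 in females (SE 0.44, 95% CI 0.03 to 1.94, adjusted p = 0.298). The effect in females minus that in males was 1.75 (SE 0.64, 95% CI 0.38 to 3.12), and at an adjusted p of 0.311 it was not called. In these estimates, which have no error, the WT groups lay nearer each other than the KO groups did, and this was not tested.

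The spread of *Slc12a2* between libraries was unusual for its level. Its SE was 3.98 times the median SE of genes at a like level in males and 3.86 times in females, and 99.8% and 99.9% of 1377 such genes, within 0.5 log2 CPM of it, had a smaller one. At that SE the smallest log2FC that would have been called was 1.67 for males, 1.93 for females and 3.12 for the difference. Which libraries carried the spread cannot be read from fitted values. Markers of leukocytes, of which 4 of 6 had a value and *Cd3e* and *Cd79a* had none, lay in the same order. Their summed level was 39.4 CPM in WT males, 23.1 in KO males, 27.1 in WT females and 59.1 in KO females, with 0 of the 4 called in either sex (limma) and 1 of 4 in each at an unadjusted p under 0.05 (beside 21.9% of all genes in males and 15.9% in females). For the interaction all 4 had positive values and 0 of 4 were called (limma). At an unadjusted p under 0.05, 2 of 4 were counted there, beside 10.2% of all genes. The part of leukocytes in the values of *Slc12a2* was not tested.

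**Figure D3:**
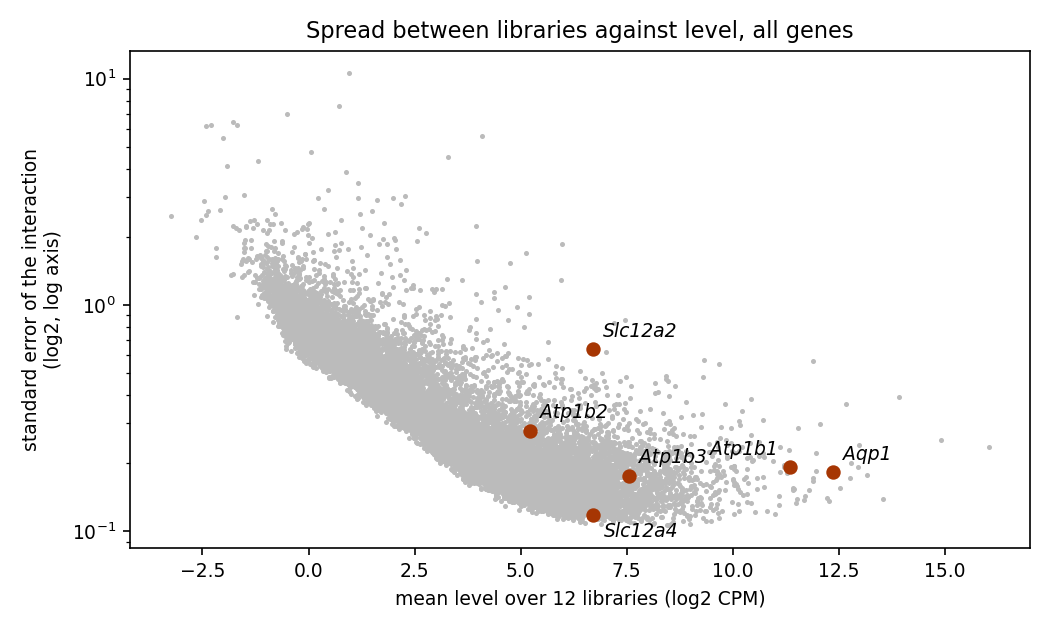
Standard error of the interaction (vertical axis, log2 units on a log axis) against mean level (horizontal axis, log2 CPM) for all 15838 genes in grey and the 6 pump genes in brown. *Slc12a2* lies above nearly all genes of its level at 0.64, and *Slc12a4*, at almost the same level, lies at the lower edge at 0.12.

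*Slc12a4*, the KCC1 gene, had the narrowest intervals of the 6. The 4 groups lay close together, at an estimated 110 CPM in WT males, 100.2 in KO males, 109 in WT females and 103 in KO females. KO minus WT was -0.13 in males (SE 0.08, 95% CI -0.31 to 0.05, adjusted p = 0.380) and -0.08 in females (SE 0.08, 95% CI -0.26 to 0.10, adjusted p = 0.675). As a ratio of KO to WT, the interval was 0.807 to 1.04 for males and 0.835 to 1.07 for females. At its SE the smallest log2FC that would have been called was 0.30 for males and 0.36 for females, a bound on the estimate and not on the true change. The difference between the sexes was 0.05 (95% CI -0.20 to 0.30). Of the CPM per kb of *Slc12a2* and *Slc12a4* together, *Slc12a2* made up 27.2% in WT males, 19.4% in KO males, 25.8% in WT females and 42.1% in KO females.

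*Atp1b1* had the same signs as *Slc12a2*, at smaller size. This gene encodes the main β subunit of the pump in many epithelia. WT males were estimated at 2511 CPM, KO males at 2159, WT females at 2550 and KO females at 3274, so that the KO groups were the lowest and the highest. KO minus WT was -0.22 in males (SE 0.14, 95% CI -0.51 to 0.07, adjusted p = 0.366) and 0.36 in females (SE 0.14, 95% CI 0.07 to 0.65, adjusted p = 0.209). The interaction was 0.58 (SE 0.19, 95% CI 0.17 to 0.99, adjusted p = 0.245), a ratio of 1.49 between the sexes' KO effects.

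*Atp1b3*, whose β3 product is another partner of the α subunit, was nearest to a call within 1 sex. Estimated levels were 162 CPM in WT males, 213 in KO males, 186 in WT females and 190 in KO females, highest in KO males. KO minus WT was 0.39 in males (SE 0.12, 95% CI 0.12 to 0.66, adjusted p = 0.0851), a ratio of 1.31, and 0.03 in females (SE 0.12, 95% CI -0.24 to 0.30, adjusted p = 0.930). The interaction was -0.36 (SE 0.18, 95% CI -0.74 to 0.02, adjusted p = 0.525), so that unequal effects in the sexes were not shown. Because no pump gene was called, genes of like pattern were sought for *Atp1b3*, which had the largest moderated t. Among 8800 genes with a mean of at least 10 CPM, the nearest by distance over 3 values (KO minus WT in males, the same in females, and female minus male) were *Nelfa* at 0.0289, *Taf7* at 0.0306 and *Polr3e* at 0.0337, which encode a subunit of negative elongation factor, a subunit of TFIID and a subunit of RNA polymerase III.

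*Atp1b2*, best known from glia, had the lowest level of the 3 β genes and negative values in both sexes. Its estimated level was 38.2 CPM in WT males, 27.4 in KO males, 48.8 in WT females and 37.2 in KO females. KO minus WT was -0.48 in males (SE 0.20, 95% CI -0.91 to -0.05, adjusted p = 0.180) and -0.39 in females (SE 0.19, 95% CI -0.81 to 0.02, adjusted p = 0.338), and the interaction was 0.09 (95% CI -0.51 to 0.69). The 8 stromal markers also had negative values in both sexes, with 0 of 8 called in either (limma) and, at an unadjusted p under 0.05, 5 of 8 in males (beside 21.9% of all genes) and 7 of 8 in females (beside 15.9%). Several other marker lists also had lower sums in both KO groups, as given below. Markers of nerve and glia summed to 58.9 CPM in WT males, 60.0 in KO males, 61.5 in WT females and 61.6 in KO females. The part of any of these tissues in the values of *Atp1b2* was not tested.

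*Aqp1*, rank 12 of all genes in CPM, had almost the same positive value in both sexes. Its estimated level was 4641 CPM in WT males, 5682 in KO males, 4924 in WT females and 5979 in KO females. KO minus WT was 0.29 in males (SE 0.13, 95% CI 0.01 to 0.57, adjusted p = 0.203) and 0.28 in females (SE 0.13, adjusted p = 0.308), ratios of 1.22 and 1.21. The interaction was -0.01, with a 95% CI of -0.40 to 0.38.

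**Figure D4:**
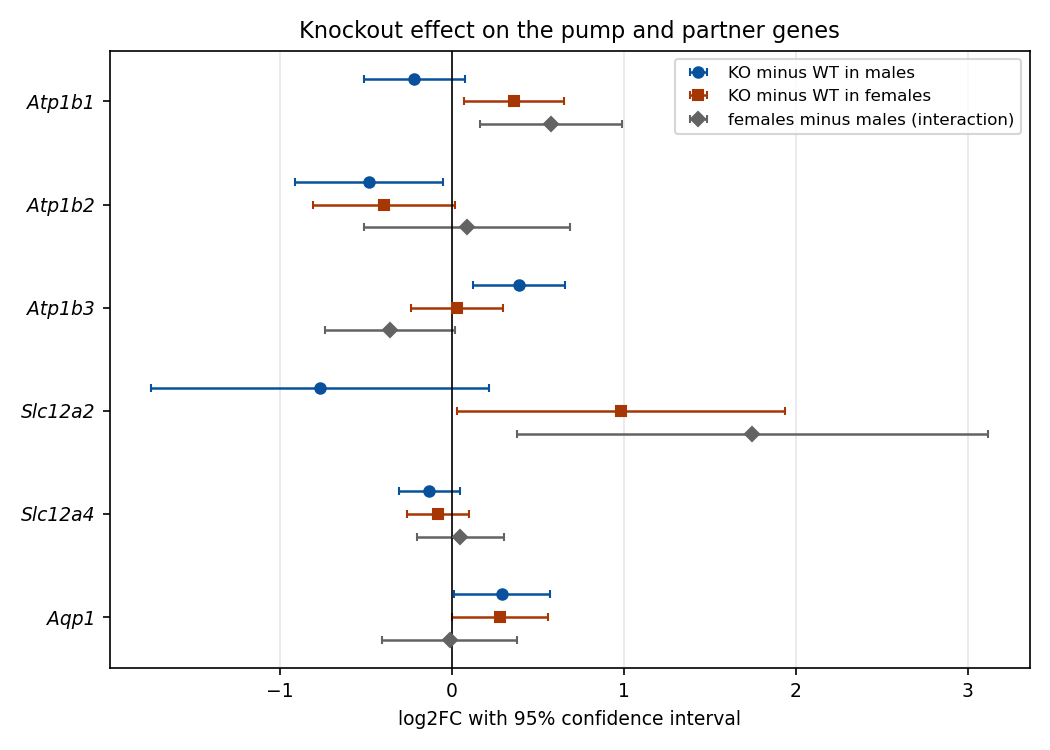
Log2FC (horizontal axis) of KO minus WT in males (circles) and females (squares) and the interaction, females minus males (diamonds), for the 6 pump genes, with 95% confidence intervals from the limma SE. The values of *Slc12a2* (-0.76 and 0.98) and *Atp1b1* (-0.22 and 0.36) lie on opposite sides of 0, and those of *Aqp1* (0.29 and 0.28) coincide.

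For the difference between the sexes in the KO effect, 0 of 6 pump genes had an adjusted p under 0.05 (limma), beside 0.543% of all genes. At an unadjusted p under 0.05, 2 of 6 were counted, *Atp1b1* and *Slc12a2*, both with positive values, beside 10.2% of all genes. The median size of this difference was 0.23 over the 6 genes and 0.23 over all genes.

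Averaging the KO effect over both sexes narrowed the intervals and brought *Atp1b2* and *Aqp1* near the threshold without passing it. The mean KO effect on *Atp1b2* was -0.44 (SE 0.14, 95% CI -0.74 to -0.14, adjusted p = 0.0642), and that on *Aqp1* was 0.29 (SE 0.09, 95% CI 0.09 to 0.48, adjusted p = 0.0648). For *Atp1b3* it was 0.21 (SE 0.09, adjusted p = 0.140), for *Slc12a4* -0.10 (SE 0.06, adjusted p = 0.261), for *Slc12a2* 0.11 (SE 0.32, adjusted p = 0.844) and for *Atp1b1* 0.07 (SE 0.10, adjusted p = 0.647). By limma, 0 of 6 genes were called for this mean effect, beside 9.07% of all genes, and 3 of 6 (*Atp1b2*, *Atp1b3* and *Aqp1*) had an unadjusted p under 0.05, beside 27.9% of all genes.

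Between females and males, over both genotypes, all 6 genes had a positive value and 0 of 6 were called (limma adjusted p under 0.05), beside 0.0316% of all genes. At an unadjusted p under 0.05, 2 of 6 were counted, *Atp1b1* and *Atp1b2*, beside 3.74% of all genes. Female minus male was 0.75 for *Slc12a2* (SE 0.38, adjusted p = 0.882), 0.39 for *Atp1b2* (SE 0.18, adjusted p = 0.882) and 0.31 for *Atp1b1* (SE 0.12, adjusted p = 0.882). For *Aqp1*, *Atp1b3* and *Slc12a4* it was 0.08, 0.02 and 0.01. These values come from a fit other than that of genotype and interaction, and whether it adjusted for genotype is not known.

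Among the FXYD proteins, small regulators that bind the sodium pump, 3 genes were called lower for the mean KO effect over both sexes. *Fxyd1* and *Fxyd5* had low mean levels, at 2.21 and 2.10 CPM. Of 7 FXYD genes in the list 5 had a value, a subset formed after values were seen. In males 1 of 5 fell and none rose, beside 5.47% of all genes called in either direction. At an unadjusted p under 0.05 (limma), 4 of 5 were counted in males, beside 21.9% of all genes. For the mean effect over both sexes 3 of 5 fell, beside 9.07%. In females 0 of 5 were called (limma), beside 1.42% of all genes, with 2 of 5 at an unadjusted p under 0.05, beside 15.9%. For the interaction 0 of 5 were called, beside 0.543%, with 1 of 5 at an unadjusted p under 0.05, beside 10.2%. *Fxyd5*, which encodes dysadherin, fell in males from an estimated 4.84 to 0.854 CPM (log2FC -2.50, SE 0.56, adjusted p = 0.0220), whereas its value in females was -0.11 (SE 0.45). In females it was estimated at 2.25 CPM in WT and 2.09 in KO. The difference between the sexes for *Fxyd5* was 2.39 (SE 0.72) and was not called (adjusted p = 0.189). *Fxyd1*, the gene of phospholemman, fell by 1.58 on the log2 scale (SE 0.32, adjusted p = 0.0105) and *Fxyd6* by 1.17 (SE 0.25, adjusted p = 0.0138) in the mean over both sexes. *Fxyd1* was estimated at 4.13 CPM in WT males, 1.52 in KO males, 3.54 in WT females and 1.07 in KO females.

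The stromal, ciliary and pigment cell lists of markers had lower sums in the KO groups of both sexes. So did the lists of corneal epithelium, vascular endothelium, red blood cells, lens and muscle. Corneal epithelial markers summed to 1550 CPM in WT males, 1002 in KO males, 1440 in WT females and 785 in KO females. Not every list had lower sums in both sexes. Markers of nerve and glia summed to 58.9 CPM in WT males, 60.0 in KO males, 61.5 in WT females and 61.6 in KO females. The leukocyte sum was higher in KO females than in WT females. For the mean effect 6 of the 8 stromal markers fell, beside 9.07% of all genes called. The 5 markers of ciliary epithelium summed to 152 CPM in WT males, 117 in KO males, 149 in WT females and 56.0 in KO females, and 4 of the 5 fell in the mean. Of 6 markers of iris and ciliary pigment cells, 5 had a value, with sums of 34.1, 13.7, 44.6 and 6.05 CPM in the same order of groups, and *Tyr* and *Dct* fell in the mean. Within males and within females, 0 of 8 stromal, 0 of 5 pigment and 1 of 5 ciliary markers were called (limma). Of the corneal epithelial markers 1 of 7, *Aldh3a1*, was called lower in each sex. All genes were called at 5.47% in males and 1.42% in females. At an unadjusted p under 0.05, 0 of 5 pigment markers were counted in males, beside 21.9% of all genes. In females 5 of 5 were, beside 15.9%. The part of these tissues in the values of the FXYD genes was not tested.

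The other cation-chloride cotransporters held no call. Of 7 in the list, 4 had a value, and 0 of 4 passed in any contrast (limma). At an unadjusted p under 0.05 there was 1 of 4 in males, beside 21.9% of all genes, and 0 of 4 in females, beside 15.9%, and all 4 had negative values in both sexes. The list of WNK and SPAK control of NKCC1 and the KCCs held kinases and other genes of that control. All 13 of 13 had a value, and 0 of 13 were called in males, in females or for the interaction (limma). At an unadjusted p under 0.05 the counts were 3 of 13 in males, beside 21.9% of all genes, 3 of 13 in females, beside 15.9%, and 2 of 13 for the interaction, beside 10.2%, shares near those of all genes. In the mean over both sexes 2 of 13 were called, beside 9.07% of all genes. *Cab39l*, a scaffold for these kinases, rose by 0.44 in that mean (SE 0.10, adjusted p = 0.0165), and *Wnk2* fell by 0.51 (SE 0.12, adjusted p = 0.0227). *Wnk1*, with the highest CPM of the list, was at 0.31 in males (SE 0.09, adjusted p = 0.0720) and -0.05 in females (SE 0.09, adjusted p = 0.845).

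Among the sodium-proton exchangers and their adaptors, 10 of 14 had a value and 1 of 10, *Slc9a3r1*, rose in females, beside 1.42% of all genes called. It encodes NHERF1, a scaffold that tethers transporters to the apical membrane. Its estimated level was 27.2 CPM in WT males, 39.3 in KO males, 22.2 in WT females and 47.4 in KO females. The log2FC was 1.09 in females (SE 0.15, adjusted p = 0.00250) and 0.53 in males (SE 0.15, adjusted p = 0.0503), and the interaction of 0.56 (SE 0.21) was not called (adjusted p = 0.327). In the mean over both sexes *Slc9a3r1* was also called (limma), with a rise of 0.81, as 1 of 10 beside 9.07% of all genes. *Slc9a3r2*, the related adaptor with the highest level of the list, was at -0.07 in males and 0.03 in females, with SE 0.14 in each. Of 11 other water channels, 4 had a value and 0 of 4 were called in any contrast (limma), nor did any have an unadjusted p under 0.05. *Aqp5*, a water channel of the corneal epithelium and the highest of these in CPM, was estimated at 6.63 to 35.5 CPM in the 4 groups, with a log2FC of -1.05 in males (SE 0.89) and -1.15 in females (SE 1.29).

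Of 12 chloride channel and related genes, 10 had a value, and 2 subunits of the volume-regulated anion channel rose in males, 2 of 10 beside 5.47% of all genes called. In females 0 of 10 were called (limma), beside 1.42% of all genes, and 4 of 10 had an unadjusted p under 0.05, beside 15.9%. *Lrrc8d* rose from an estimated 199 to 290 CPM in males (log2FC 0.54, SE 0.10, adjusted p = 0.00757), and in females it was estimated at 237 CPM in WT and 182 in KO (log2FC -0.38, SE 0.10, adjusted p = 0.0745). Its effects in the 2 sexes differed by -0.92 (SE 0.14, 95% CI -1.22 to -0.63, adjusted p = 0.0136), and it was the only gene of the 6 transport lists whose difference between the sexes was called, beside 0.543% of all genes. *Lrrc8c*, which encodes another subunit, rose in males by 0.45 (SE 0.12, adjusted p = 0.0479) and was at -0.32 in females (SE 0.13, adjusted p = 0.248), with an interaction of -0.77 (SE 0.18, adjusted p = 0.0864). The remaining subunits *Lrrc8a*, *Lrrc8b* and *Lrrc8e* had no call in any contrast. The signs of *Lrrc8c* and *Lrrc8d* in the 2 sexes were opposite to those of *Slc12a2* and *Atp1b1*, a comparison of signs over the same libraries that was not tested.

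**Figure D5:**
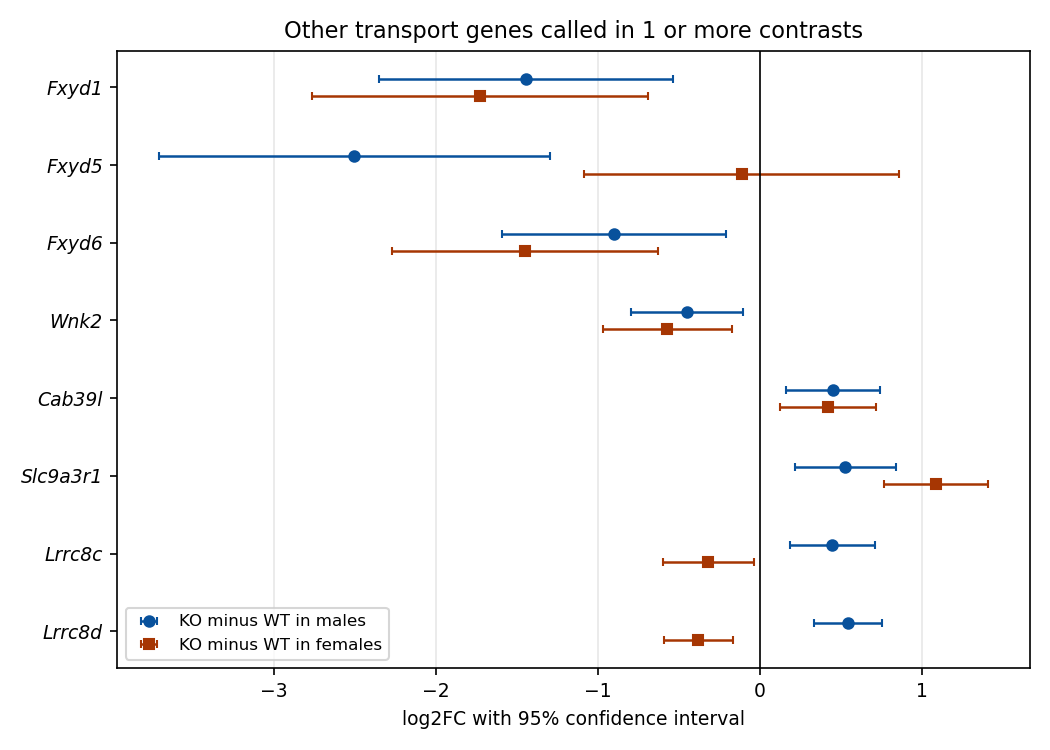
Log2FC of KO minus WT (horizontal axis) in males (circles) and females (squares), with 95% confidence intervals from the limma SE, for the 8 genes reported from the transport lists that passed an adjusted p of 0.05 in 1 or more contrasts. *Fxyd5* lies at -2.50 in males and -0.11 in females, and *Lrrc8d* lies at 0.54 in males and -0.38 in females.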

How the data were processed

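Total RNA from CEC with Descemet membrane was made into stranded libraries and read as paired ends. Per the labels, the authors used HISAT2 for alignment to GRCm38 and limma for the fits; their methods add TMM scaling of CPM and voom weights (versions not given in the sources used here). They deposited 3 tables, for genotype, sex and the interaction, each with 15838 genes. The deposited log2FC and mean level are log2 values. The deposited moderated t is taken as a score. The deposited p-value has its Benjamini-Hochberg adjusted value beside it. The columns hold the authors' own comparisons, and the printed effects were taken or derived from them because no other values were at hand.

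The SE was the log2FC divided by t. Males were taken as the reference sex, so that the genotype coefficient is their KO minus WT, since the ratio of interaction SE to genotype SE had a median of 1.42 but was 8.04 to 8.29 for Y-linked genes. Adding the interaction to it gave the effect in females, with a squared SE equal to the difference of both squared SEs. The mean effect is the genotype coefficient plus 0.5 times the interaction. P-values came from t with 13.8 degrees of freedom (14.6 for sex, which comes from another fit), and were adjusted by Benjamini-Hochberg over all genes. Group levels combine both fits. Derivations were tested on simulated data. GENCODE M21 held 15824 of the genes. Python 3.11.15, scipy 1.17.1 and, for the simulation, R 4.3.3 with limma 3.58.1 were used.

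Genes, lists and tests were chosen with earlier results of these data known. Named genes are the 6 pump genes, *Slc4a11*, the Y-linked genes, each transport list's called genes and its gene of highest level, and the 3 genes nearest in pattern to the pump gene with the largest t. Other genes named (marker genes, *Xist*, *Lrrc8a*, *Lrrc8b*, *Lrrc8e* and overlapping genes) were added after seeing values. The rule picks 3 further genes, which are not reported here. Alternatives were other filters, adjustments, call rules, coding and gene lengths.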

Additional observations from a re-analysis of the deposited data

Results flagged for a closer look

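*Lrrc8d*, a subunit gene of the volume-regulated anion channel, was singled out because its KO effects in the 2 sexes differed by a test of the difference itself. The effect in females minus that in males was -0.92 on the log2 scale (limma adjusted p = 0.0136), with 0.54 in males and -0.38 in females. None of the 6 pump genes met that test.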

How the results depend on the processing

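All 30 adjusted p-values of the 6 genes in 5 contrasts stayed above 0.05 when the adjustment took genes with a mean of at least 1 CPM (lowest 0.0615) or 10 CPM (lowest 0.0504), pooled the 3 tables (lowest 0.124), or used the Benjamini-Yekutieli (lowest 0.658) or Holm method (all 1). The count of called genes stayed at 0 of 6 under each of these and under the study's rule. If the female were the reference sex, the signs of 4 of 12 values would reverse, with *Atp1b1* at 0.36 in males and -0.22 in females, and *Slc12a2* at 0.98 in males and -0.76 in females. The SE ratio of the Y-linked genes, given above, is why males were taken as the reference instead. With the longest transcript as length, levels were 9.97 log2 CPM per kb for *Atp1b1*, 6.55 for *Atp1b3*, 4.0 for *Slc12a2* and 4.79 for *Slc12a4*. Leaving out each library was not run, because the tables hold no value per library. For the same reason no paired analysis was possible. The SE is the only measure of precision, since depth is unknown.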
